A study of Mus musculus with 29 samples.

Results

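The 9 genes described here encode chaperones of the endoplasmic reticulum (ER) and their partners in protein folding and quality control: Hspa5, Hsp90b1, Pdia4, Calr, Dnajb9, Sdf2l1, Xbp1, Herpud1 and Edem1. They were taken by symbol from the gene names in the array files, with every probe that is not a control, and matched 10 of 39429 probes, since Dnajb9 has 2 probes. All 9 were among the 19509 genes tested, and all 10 probes were well above background in Cy5 on all 29 arrays with none saturated. Livers of 29 male C57BL/6N mice were hybridised, 1 per 2-colour array, with the liver in Cy5 and a pool of all samples in Cy3. Every mouse was fed a corn oil-based high-fat diet (cHF) for 7 weeks from an age of 3 months, so no group on a low-fat diet is part of the comparison. The 7 cHF mice ate this diet alone. In the 8 cHF+PC mice about 7% of the dietary lipid was replaced by marine omega-3 phospholipids rich in phosphatidylcholine (PC), which carry EPA and DHA. The 6 cHF+R mice received a low dose of rosiglitazone (R), which activates PPAR-gamma, and the 8 cHF+PC+R mice received both. Each value is a log2 ratio of a liver to the pool after normalization within its array, and a change is a difference of group means of such ratios. The dyes were not swapped, so 0 need not be a gene's level in the pool. For Hspa5, every group mean lay above 0, from 0.13 in cHF+PC to 0.34 in cHF+R.

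As background, secreted and membrane proteins fold in the ER lumen, and hepatocytes, which secrete most plasma proteins, carry a large ER. When unfolded proteins accumulate, the sensors IRE1, PERK and ATF6 start the unfolded protein response, in which the transcription factors XBP1 and ATF6 raise ER chaperones and degradation factors and PERK acts through ATF4 and CHOP. The DNA element of ATF6 and XBP1 in chaperone promoters is the ER stress response element, a CCAAT box and a CCACG box at a fixed distance.

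The promoters of 4 of the 9 genes held a match to an element of this response, and they are printed with that of Dnajb9, which rose in the diets with PC. Each sequence covers the 250 bases before the start of the gene in RefSeq (GRCm38.p6), written from 5′ to 3′ on the gene's strand, with matches in capitals.
Hspa5, chr2:34771840-34772089, plus strand: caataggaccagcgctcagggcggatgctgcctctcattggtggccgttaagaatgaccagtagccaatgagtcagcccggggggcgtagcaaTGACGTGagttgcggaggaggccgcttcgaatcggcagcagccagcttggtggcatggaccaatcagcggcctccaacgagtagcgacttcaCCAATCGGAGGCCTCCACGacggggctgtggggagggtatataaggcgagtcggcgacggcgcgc
Hsp90b1, chr10:86705445-86705694, minus strand: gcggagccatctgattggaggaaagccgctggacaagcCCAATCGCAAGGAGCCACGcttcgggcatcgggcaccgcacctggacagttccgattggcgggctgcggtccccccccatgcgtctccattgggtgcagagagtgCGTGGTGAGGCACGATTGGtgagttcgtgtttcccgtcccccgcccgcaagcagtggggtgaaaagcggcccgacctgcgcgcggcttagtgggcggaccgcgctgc
Calr, chr8:84846932-84847181, minus strand: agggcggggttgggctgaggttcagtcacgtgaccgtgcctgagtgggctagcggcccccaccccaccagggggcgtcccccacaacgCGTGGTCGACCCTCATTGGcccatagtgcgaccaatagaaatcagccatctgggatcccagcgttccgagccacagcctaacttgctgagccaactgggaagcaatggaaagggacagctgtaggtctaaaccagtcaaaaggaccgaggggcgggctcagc
Herpud1, chr8:94386179-94386428, plus strand: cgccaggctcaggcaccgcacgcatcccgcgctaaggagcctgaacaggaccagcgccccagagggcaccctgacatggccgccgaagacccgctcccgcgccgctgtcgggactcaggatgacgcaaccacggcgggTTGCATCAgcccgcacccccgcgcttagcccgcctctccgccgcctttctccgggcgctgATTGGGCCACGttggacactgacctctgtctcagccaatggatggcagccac
Dnajb9, chr12:44210069-44210318, minus strand: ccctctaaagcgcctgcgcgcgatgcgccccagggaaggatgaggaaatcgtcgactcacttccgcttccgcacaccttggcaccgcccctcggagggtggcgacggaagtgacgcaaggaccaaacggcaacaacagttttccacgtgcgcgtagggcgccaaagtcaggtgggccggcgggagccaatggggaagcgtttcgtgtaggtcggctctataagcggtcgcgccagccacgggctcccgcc

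The letters searched, on both strands, were CCAAT followed after 9 free bases by CCACG (ERSE), ATTGG followed after 1 free base by CCACG (ERSE-II), TGACGTG (the core of the XBP1 element) and TGATGNAA (an ATF4 and C/EBP composite element). ERSE matched in Hspa5, from 65 to 47 bases before the start, in Hsp90b1 at 2 places and in Calr at 1. It was found in 0.113% of 32841 promoters of the same length. ERSE-II matched in Herpud1, from 52 to 42 bases before the start, and in 0.0304% of all promoters. The Herpud1 promoter also held the composite element on the opposite strand, a motif in 3.45% of promoters, and the Hspa5 promoter held TGACGTG, a motif in 1.65%. These letters were not in the windows of Pdia4, Dnajb9, Sdf2l1, Xbp1 and Edem1. A match is a run of letters, and no binding was measured here. The elements were searched because they are known from this response, so the percentages are a background rate and no test.

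The 9 genes did not move as a block between diets. With PC, Dnajb9 and Herpud1 rose and Pdia4 fell, while Hspa5 and Hsp90b1, common readouts of ER stress, did not pass the test in any comparison. Against cHF, 1 gene passed in cHF+PC (3.93% of all genes tested passed), 0 in cHF+R (3.11%) and 2 in cHF+PC+R (9.48%). When the PC difference was averaged over diets with and without R, 3 of 9 passed, where 16.3% of all genes did. The members' median log2 change in that average was 0.08, beside 0.00 over all genes. In liver tissue, fewer cells of a type and less RNA per cell cannot be told apart.

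**Figure D1:**
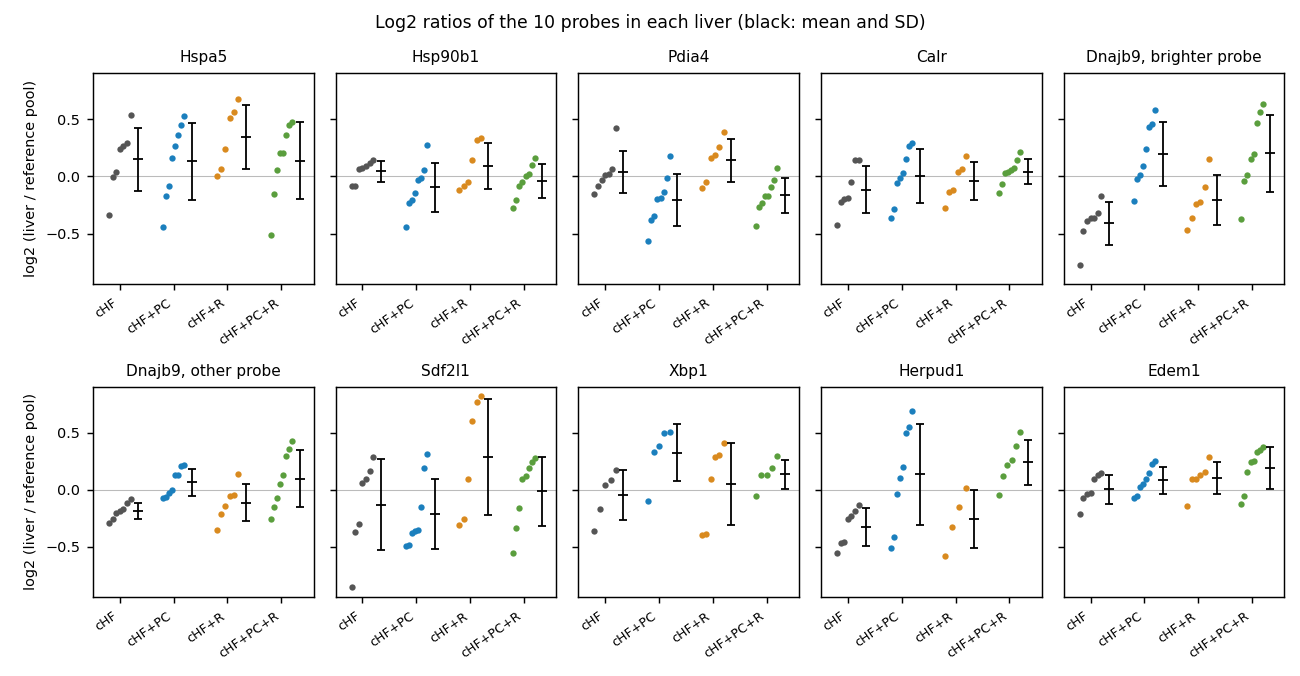
Log2 ratios of the 10 probes to the reference pool, on a log2 axis, in each liver by diet group, with the mean and SD in black. All 7 cHF livers lie below 0 for both probes of Dnajb9 and for Herpud1, whereas Hspa5 has livers above 0 in every group and none below 0 in cHF+R.

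Hspa5 encodes BiP, the HSP70 chaperone of the ER lumen, which also holds the stress sensors inactive (probe at chr2:34631913-34631972 in mm9, plus strand). Its log2 ratios ran from -0.33 through a median of 0.24 to 0.53 in cHF and from -0.44 through 0.21 to 0.53 in cHF+PC. They ran from 0.00 through 0.38 to 0.67 in cHF+R and from -0.51 through 0.20 to 0.48 in cHF+PC+R. No cHF+R liver lay below 0, 2 of the 6 lay above all cHF livers, and the ranges of the other 3 groups were alike. The change was -0.02 ± 0.152 (SE) in cHF+PC, with a 95% interval from -0.33 to 0.30. It was 0.20 ± 0.163 with R alone and -0.01 ± 0.152 with both supplements, again against cHF (adjusted p = 0.975 with PC, 0.627 with R and 0.973 with both). The intervals leave room for a change of about 0.3 in either direction with PC.

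Hsp90b1 encodes GRP94, the HSP90 of the ER (probe at chr10:86153770-86153829, minus strand). Its median log2 ratio was 0.07 in cHF (from -0.09 to 0.14), -0.09 in cHF+PC (from -0.44 to 0.27), 0.05 in cHF+R (from -0.12 to 0.34) and -0.02 in cHF+PC+R (from -0.28 to 0.16). The cHF livers sat inside the range of both PC groups. Averaged over R, the PC difference was -0.14 ± 0.061 (unadjusted p = 0.0353, adjusted p = 0.135). Calr encodes calreticulin, a lectin chaperone that binds calcium (probe at chr8:87366192-87366251, minus strand). Its median was -0.19 in cHF (from -0.43 to 0.14), 0.01 in cHF+PC (from -0.37 to 0.29), -0.04 in cHF+R (from -0.28 to 0.18) and 0.05 in cHF+PC+R (from -0.15 to 0.22). The groups overlapped, and the change in cHF+PC+R against cHF was 0.16 ± 0.093 (adjusted p = 0.302).

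Pdia4 encodes ERp72, a protein disulfide isomerase (probe at chr6:47746516-47746575, minus strand). Its log2 ratios ran from -0.15 through a median of 0.01 to 0.42 in cHF and from -0.10 through 0.17 to 0.39 in cHF+R. In the diets with PC they ran from -0.56 through -0.19 to 0.17 in cHF+PC and from -0.43 through -0.17 to 0.08 in cHF+PC+R. Both PC groups were centred below the groups without PC, with overlap. Averaged over R, Pdia4 fell by 0.27 ± 0.068, a 1.21-fold difference (adjusted p = 0.00617). The single comparisons did not pass. The change was -0.24 ± 0.094 in cHF+PC (adjusted p = 0.156) and -0.20 ± 0.094 in cHF+PC+R (adjusted p = 0.186) against cHF. It was -0.31 ± 0.099 in cHF+PC+R against cHF+R (adjusted p = 0.0561), and lower in 6 of the 6 slides that carried an array of both groups, from -0.56 to -0.17 within slides (-0.33, adjusted p = 0.049, with the slide as a block). With that block the average over R was -0.28 (adjusted p = 0.00952). The highest cHF liver, replicate 3 at 0.42, lay far from the next at 0.07. The averaged decrease passed when any 1 array was left out, but not with scaling between arrays after loess (-0.48, adjusted p = 0.0772) or with median centring in place of loess (-0.36, adjusted p = 0.692).

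Dnajb9 encodes ERdj4, a J-domain cochaperone of BiP that is induced by XBP1 and by ER stress. By its brighter probe, the log2 ratios ran from -0.77 through a median of -0.37 to -0.17 in cHF and from -0.47 through -0.23 to 0.15 in cHF+R. They ran from -0.22 through 0.17 to 0.58 in cHF+PC and from -0.37 through 0.17 to 0.63 in cHF+PC+R. In cHF+PC, only replicate 5 (-0.22) fell within the range of the cHF livers, and in cHF+PC+R only replicate 5 (-0.37) did. Dnajb9 rose 1.52-fold in cHF+PC, a log2 change of 0.61 ± 0.131 (adjusted p = 0.00707), and by 0.61 ± 0.131 in cHF+PC+R (adjusted p = 0.00322), each against cHF. Within slides it was higher in 7 of 7 in cHF+PC, from 0.15 to 1.02, and in 6 of 7 in cHF+PC+R. With the slide as a block these changes were 0.58 in both (adjusted p = 0.00863 and 0.00397). The change in cHF+R was 0.20 ± 0.140 (adjusted p = 0.529), with a 95% interval from -0.08 to 0.49. In cHF+PC+R against cHF+R it was 0.41 ± 0.136 (adjusted p = 0.0659), and averaged over R the PC difference was 0.51 ± 0.094 (adjusted p = 0.000457).

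The probes of Dnajb9 lie on chromosome 12 in mm9, the brighter from 45307313 to 45307372 and the other from 45308272 to 45308331, nearer the 5′ end of the transcript. By the other probe all 8 cHF+PC livers (from -0.07 to 0.22) lay above all 7 cHF livers (from -0.29 to -0.09). The sizes differed: on the second probe the change was 0.25 ± 0.083 in cHF+PC (adjusted p = 0.0865 over probes), and in cHF+PC+R it rose by 0.28 ± 0.083 (adjusted p = 0.0291), each against cHF. Averaged over R it rose by 0.23 ± 0.060 (adjusted p = 0.00864). Both probes thus had the same sign, with the smaller change on the dimmer probe. The Dnajb9 call in cHF+PC was lost with median centring (0.62, adjusted p = 1.00). In cHF+PC+R it was lost with median centring (0.75, adjusted p = 0.269) and with scaling between arrays (0.54, adjusted p = 0.229).

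Sdf2l1 encodes a partner of the BiP and J-protein complex (probe at chr16:17130426-17130485, minus strand). It was the member with the widest spread among livers of a group. Its log2 ratios ran from -0.85 through a median of 0.05 to 0.29 in cHF and from -0.49 through -0.36 to 0.31 in cHF+PC. They ran from -0.31 through 0.35 to 0.82 in cHF+R and from -0.56 through 0.11 to 0.28 in cHF+PC+R. In cHF+R, 3 livers were at 0.60, 0.76 and 0.82, above every liver of the other groups, and 3 were at -0.31, -0.26 and 0.10. The change in cHF+R against cHF was 0.42 ± 0.197 (unadjusted p = 0.0423, adjusted p = 0.310), and the R difference averaged over PC was 0.31 ± 0.132 (adjusted p = 0.214).

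Xbp1 encodes the transcription factor that IRE1 activates by splicing, and the values give no spliced form (probe at chr11:5425816-5425875, plus strand). Spots marked as outliers were left out on 8 arrays, 2 in cHF, 3 in cHF+PC and 3 in cHF+PC+R. The 5 cHF livers were at -0.36, -0.17, 0.04, 0.08 and 0.17, and the 5 cHF+PC livers at -0.10, 0.33, 0.38, 0.50 and 0.51. The 5 cHF+PC+R livers were at -0.06, 0.12, 0.13, 0.19 and 0.29, and the 6 cHF+R livers ran from -0.39 through a median of 0.19 to 0.41. In cHF+PC, 4 of 5 livers lay above all 5 cHF livers. The change in cHF+PC against cHF was 0.37 ± 0.151 (unadjusted p = 0.0236, adjusted p = 0.188), with a 95% interval from 0.05 to 0.68, and did not pass over all genes.

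Herpud1 encodes HERP, an ER membrane protein of the ubiquitin ligase complex that degrades misfolded proteins (ER-associated degradation, ERAD; probe at chr8:96919117-96919176, plus strand). Outlier spots were left out on 4 arrays, 2 in cHF+R (replicates 1 and 3) and 2 in cHF+PC+R (replicates 3 and 5). These 2 cHF+PC+R livers had the lowest Dnajb9 of their group (-0.04 and -0.37). The 7 cHF livers ran from -0.55 through a median of -0.26 to -0.13, and the 4 cHF+R livers with a value were at -0.58, -0.32, -0.15 and 0.02. The 8 cHF+PC livers ran from -0.51 through 0.15 to 0.69 and the 6 cHF+PC+R livers from -0.05 through 0.24 to 0.51. All 6 cHF+PC+R livers with a value lay above all 7 cHF livers, while in cHF+PC replicates 5 (-0.41) and 8 (-0.51) lay within the cHF range. Herpud1 rose by 0.56 ± 0.156, or 1.48-fold, in cHF+PC+R against cHF (adjusted p = 0.0221). It was higher in 5 of the 5 slides with a value in both groups. In cHF+PC the change was 0.46 ± 0.145 (adjusted p = 0.0715). Averaged over R it rose by 0.48 ± 0.116 with PC (adjusted p = 0.0058; 0.40, adjusted p = 0.0244, with the slide as a block). The cHF+PC change passed without cHF+PC replicate 5 (0.54, adjusted p = 0.0262) or replicate 8 (0.55, adjusted p = 0.0176). The cHF+PC+R call was lost without cHF+PC+R replicate 1 (0.51, adjusted p = 0.0556), with the slide as a block (0.48, adjusted p = 0.0645) and with the outlier spots kept (0.46, adjusted p = 0.0743). It was also lost in the deposited value table (0.41, adjusted p = 0.102), with median centring (0.64, adjusted p = 0.776) and with scaling between arrays (0.56, adjusted p = 0.767). With these last 2 settings the average over R was lost too (0.33, adjusted p = 0.913, and 0.50, adjusted p = 0.417).

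Edem1 encodes a lectin that hands misfolded glycoproteins to ERAD (probe at chr6:108808920-108808979, plus strand). Its log2 ratios ran from -0.21 through a median of -0.03 to 0.15 in cHF, from -0.07 through 0.07 to 0.25 in cHF+PC and from -0.14 through 0.11 to 0.28 in cHF+R. With both supplements they ran from -0.12 through 0.24 to 0.37, and 6 of the 8 livers there lay above all cHF livers. The change in cHF+PC+R was 0.19 ± 0.074 (adjusted p = 0.107) and was above 0 in 7 of 7 slides. It passed with the slide as a block (0.21, adjusted p = 0.0495) and without cHF+PC+R replicate 3 (0.23, adjusted p = 0.037).

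**Figure D2:**
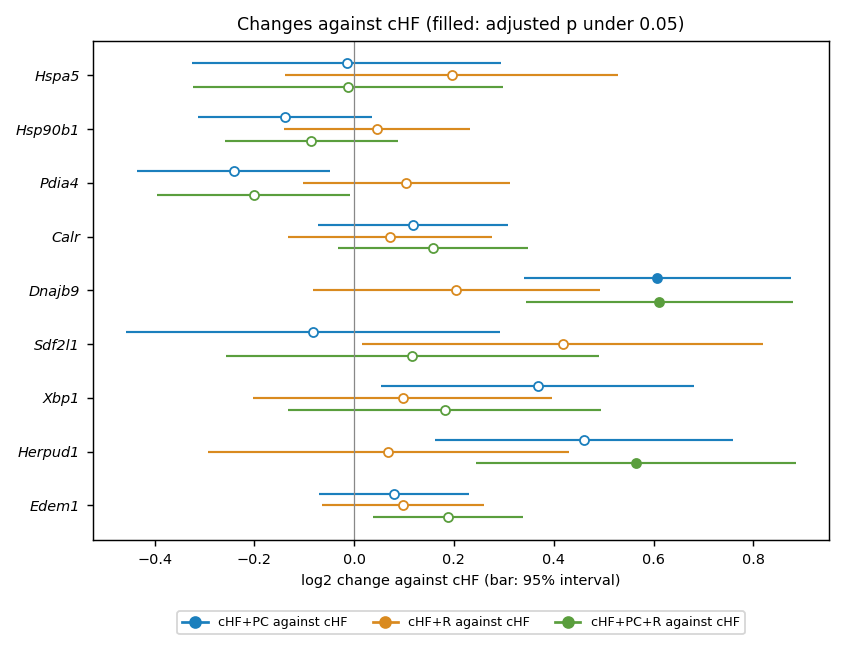
Log2 change of each gene against cHF on the x axis, with its 95% interval, for PC, R and both supplements, with filled points past an adjusted p of 0.05. Dnajb9 passed in both diets with PC and Herpud1 in cHF+PC+R, and all 9 points of cHF+R lie above 0 (7 of 9 with scaling between arrays) with no call.

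Rosiglitazone alone gave no call among the 9 genes. All 9 changes against cHF lay above 0 (7 of 9 with scaling between arrays), from 0.05 to 0.42 with a median of 0.10 (0.01 over all genes). Within diet groups, 33 of 36 pairs of the members had r above 0, so the 9 signs are not independent. Some cell type markers passed in cHF+R against cHF, where 3.11% of all genes did. Of 3 adipocyte markers measured, Cfd (4.51 ± 0.836) and Retn (0.65 ± 0.185) rose, while Lipe was at -0.01. The mean of the 3 ran from -0.56 to 1.25 in cHF+R and from -1.71 to -0.91 in cHF, with no overlap. Most of this difference comes from Cfd. The defining markers Adipoq, Plin1 and Lep were well above background on at most 2 arrays. Of 12 hepatocyte markers, Serpina1a (-0.35) and Serpina1c (-0.34) fell and 0 rose, with changes over the list from -0.35 to 0.33. Of 3 erythroid markers measured, Alas2 (-0.42) fell and 0 rose. The part of these cells in the members' values was not tested. By limma, 1 of the 9 had an unadjusted p under 0.05, as did 2909 of all 19509 genes tested. In cHF+PC+R against cHF+R, 0 of 9 passed (7.12% of all genes did), with 3 of 9 and 4336 of all genes at an unadjusted p under 0.05. In cHF+PC+R against cHF+PC, 0 of 9 passed (0.133% of all genes), with 0 of 9 and 1661 of all genes at that level. For the R difference averaged over PC, 0 of 9 passed (4.21% of all genes), with 1 of 9 and 3361 of all genes at that level. The interaction of PC and R, which tests whether the PC difference depends on R, passed for 0 of 9 and 0 of all genes (0%), with 0 of 9 and 1295 at an unadjusted p under 0.05. For Dnajb9 it was -0.20 ± 0.189, with a 95% interval from -0.59 to 0.19, and for Herpud1 0.04 ± 0.231, from -0.44 to 0.51. The comparisons against cHF share the same 7 cHF livers.

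Livers of the same diet differed widely in these genes. The SD within groups was 0.38 for Sdf2l1, 0.31 for Hspa5, 0.30 for Herpud1, 0.27 for Dnajb9 and 0.26 for Xbp1, beside a median of 0.11 over all genes. For Sdf2l1, 97.9% of genes had a smaller SD, for Hspa5 96.3% and for Edem1, the lowest of the 9, 73.9%. To ask which genes varied together from liver to liver, each log2 ratio was taken as its deviation from the mean of its diet group, which removes the diet differences. Of 36 pairs, 11 had a permutation p under 0.05 after Benjamini-Hochberg adjustment over the 36, and all 11 were positive.

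Hspa5, Hsp90b1, Sdf2l1 and Edem1 varied together from liver to liver. Hspa5 correlated with Hsp90b1 over 29 livers (r = 0.77, rho = 0.75, permutation p = 2e-05 and 6e-05, adjusted p = 0.00024 for r), and r was 0.69 without the 2 livers farthest from the median of Hspa5. Hspa5 and Sdf2l1 had r = 0.73 and rho = 0.72 (permutation p = 1e-05, the smallest that 100000 permutations can give, and 5e-05, adjusted p = 0.00024 for r), and r was 0.78 without 2 livers. Sdf2l1 and Edem1 had r = 0.74 and rho = 0.68 (permutation p = 2e-05 and 9e-05, adjusted p = 0.00024 for r) and 0.75 without 2 livers. Hspa5 and Edem1 had r = 0.69 and rho = 0.76 (permutation p = 0.0001 and 2e-05, adjusted p = 0.00072 for r) and 0.79 without 2 livers. The other pairs past the threshold were Hsp90b1 with Sdf2l1, Pdia4, Edem1 and Calr, and Calr with Sdf2l1 and Xbp1, with r from 0.50 to 0.68. Not all chaperones did so. Hspa5 with Pdia4 had r = 0.25 (adjusted permutation p = 0.326), Hspa5 with Calr 0.35 (adjusted p = 0.175), Pdia4 with Calr 0.41 (adjusted p = 0.126) and Pdia4 with Sdf2l1 0.42 (adjusted p = 0.0906).

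The genes that rose with PC, Dnajb9 and Herpud1, also varied together. They had r = 0.77 and rho = 0.77 over 25 livers (permutation p = 8e-05 and 0.00017, adjusted p = 0.00072 for r), and r was 0.74 without the 2 livers farthest from the median of Dnajb9. Neither passed with any chaperone of the lumen. Herpud1 and Hspa5 had r = 0.30 and rho = 0.27 (permutation p = 0.225 and 0.248, adjusted p = 0.326 for r). Dnajb9 and Hspa5 had r = 0.44 and rho = 0.36 (permutation p = 0.0286 and 0.0758, adjusted p = 0.0859 for r), and r was 0.28 without 2 livers. For Herpud1 and Edem1, which both serve ERAD, r was -0.01 and rho 0.04 (permutation p = 0.971 and 0.849). Pdia4, which fell with PC, had r = -0.24 and rho = -0.21 with Dnajb9 (permutation p = 0.226 and 0.3, adjusted p = 0.326 for r). That the correlations of Dnajb9 with Herpud1 and with Hspa5 differ was not tested. A slide carried at most 4 arrays, too few for a correlation within it. With slide and group removed together, r was 0.69 for Dnajb9 with Herpud1, 0.71 for Hspa5 with Hsp90b1 and 0.68 for Hspa5 with Sdf2l1. On that scale Hspa5 had r = 0.49 with Dnajb9 and 0.45 with Herpud1, both above the values with the group alone removed. The highest were Calr with Sdf2l1 (0.82) and with Xbp1 (0.78), and Pdia4 with Calr had 0.55. Xbp1 with Herpud1 had 0.73, but 18 livers are few for removing both slide and group. With the group alone removed that pair had r = 0.30 and rho = 0.02 (adjusted permutation p = 0.417 for r), and r = -0.14 without 2 livers.

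**Figure D3:**
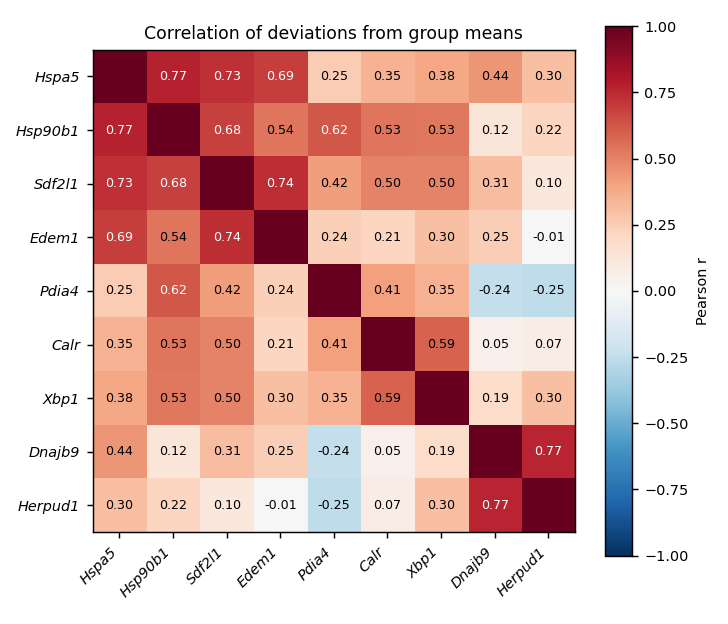
Pearson correlation between pairs of the 9 genes, over the deviations of 18 to 29 livers from their group means; the colour scale runs from -1 to 1. Hspa5, Hsp90b1, Sdf2l1 and Edem1 form a positive block (0.54 to 0.77), and Dnajb9 pairs with Herpud1 at 0.77.

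**Figure D4:**
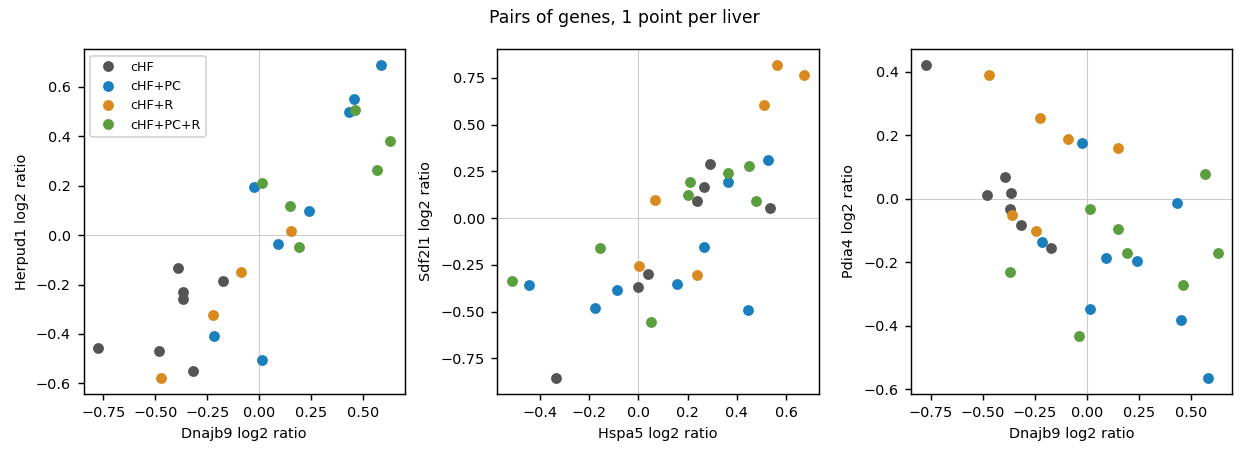
Log2 ratios to the reference pool of Herpud1 against Dnajb9, Sdf2l1 against Hspa5 and Pdia4 against Dnajb9, with 1 point per liver coloured by diet. For Herpud1 against Dnajb9 the cHF livers sit at the lower left and most PC livers at the upper right, while for Sdf2l1 against Hspa5 the groups are mixed along the diagonal.

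The genes whose pattern was most like the mean of the 9 standardised log2 ratios were sought among 18215 others with a value on all 29 arrays. The members followed that mean unequally. The r of a member with the mean of the others was 0.72 for Hspa5 and 0.71 for Sdf2l1. For the genes that changed with PC it was lower, 0.30 for Dnajb9, 0.28 for Herpud1 and 0.16 for Pdia4. The closest were Creld2 (r = 0.85) and Manf (r = 0.81), which encode ER-resident proteins known to be induced by ER stress. Then came Gfpt1, the entry enzyme of hexosamine synthesis (0.75), Gm9115 (0.75), Tpst1, a Golgi tyrosylprotein sulfotransferase (0.72), Selenos, an ERAD selenoprotein (0.71), Ubfd1 (0.70) and LOC100045474 (0.68). The correlations rest on the same 29 arrays and share their reference, and they were picked as the highest, so no p is given. As deviations from group means, r was 0.86 for Creld2 and 0.85 for Manf. Like Hspa5, Creld2 had no call in the diets. Its change against cHF was 0.08 ± 0.206 with PC, 0.38 ± 0.222 with R and 0.20 ± 0.206 with both (adjusted p = 0.886, 0.44 and 0.587).

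Among other ER genes, those of folding and translocation that passed with PC averaged over R all fell. Among 22 other ER chaperones and foldases measured, 0 rose and 5 fell with PC averaged over R (8.67% of all genes fell), with a median of -0.07. These were the thioredoxin-like Erp29 (-0.23 ± 0.037, adjusted p = 9.14e-05), the peptidyl-prolyl isomerase Fkbp11 (-0.21), the J-proteins Dnajc10 (-0.18) and Dnajb11 (-0.18), and the disulfide isomerase Pdia6 (-0.24). Among 34 genes of translocation into the ER and of vesicle transport, 0 rose and 8 fell, with a median of -0.06. They were the cargo receptor subunit Mcfd2 (-0.27 ± 0.036, adjusted p = 7.86e-06), Ssr1, Surf4, Sec61b, Sec11c, Spcs2, Stt3a and Tmed2. The chaperones Hyou1 and Pdia3 did not pass, at -0.03 ± 0.059 and -0.12 ± 0.079 (adjusted p = 0.765 and 0.328), and Canx, which encodes calnexin, was not tested, since its spot was marked as an outlier on all 29 arrays. Against cHF alone fewer passed, where 3.93% of all genes passed in cHF+PC, 3.11% in cHF+R and 9.48% in cHF+PC+R. Of the chaperones and foldases, 1 passed in cHF+PC, 0 in cHF+R and 2 in cHF+PC+R, where Fkbp11 fell by 0.32 ± 0.076 (adjusted p = 0.00771) and Erp29 by 0.21 ± 0.052 (adjusted p = 0.00881). Of the translocation and transport genes, 2 fell in cHF+PC (Mcfd2 and Surf4), Stt3b of the oligosaccharyltransferase rose by 0.28 ± 0.054 in cHF+R (adjusted p = 0.0018), and 3 fell in cHF+PC+R, among them Ssr1 by 0.26 ± 0.069 (adjusted p = 0.0153).

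Genes of ERAD went both ways. Of 19 measured, 3 rose with PC averaged over R (7.6% of all genes rose), namely the lectin Os9 (0.18 ± 0.043), the ubiquitin ligase Rnf5 (0.14) and the p97 cofactor Nploc4 (0.14). The derlins Derl2 (-0.20 ± 0.048) and Derl1 (-0.13) fell (8.67% of all genes fell), and the median was 0.02. Against cHF alone, 0 passed in cHF+PC (3.93% of all genes did), 0 in cHF+R (3.11%) and 3 in cHF+PC+R (9.48%). These 3 were Nploc4 (0.19) and Os9 (0.19), which rose, and Derl2 (-0.32), which fell. Derl3, another derlin, had the largest change of the list, 0.64 ± 0.276 in cHF+PC+R and 0.59 ± 0.297 in cHF+R against cHF, and did not pass (adjusted p = 0.145 and 0.35). Sel1l, the adaptor of the HRD1 ligase, was at -0.08 ± 0.058 (adjusted p = 0.387). Among 10 sensors, transcription factors and other regulators of the response, 3 rose and 1 fell with PC averaged over R. Creb3l3 (0.38 ± 0.053, adjusted p = 2.01e-05), Eif2ak3, which encodes PERK (0.23 ± 0.065, adjusted p = 0.0164), and Tmbim6 (0.15) rose, and Creb3 (-0.12) fell. Neither Ern1, which encodes IRE1 (-0.01 ± 0.047, adjusted p = 0.89), nor Atf6 (0.01 ± 0.035, adjusted p = 0.861) passed. Creb3l3 also fell by 0.35 ± 0.081 in cHF+R against cHF (adjusted p = 0.0121), while in cHF+PC it rose by 0.30 ± 0.072 (adjusted p = 0.0154). With both supplements, Creb3l2 rose by 0.24 ± 0.071 (adjusted p = 0.0313) and Creb3 fell by 0.20 ± 0.045 (adjusted p = 0.00545) against cHF.

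With PC averaged over R, 7.6% of all genes rose and 8.67% fell. In the branch of ATF4 and CHOP, 3 of 25 genes rose and 3 fell in that average, with a median of 0.00. Trib3 (0.73 ± 0.194, adjusted p = 0.00996), Shmt2 (0.30) and Ddit3, which encodes CHOP (0.18 ± 0.058, adjusted p = 0.0342), rose, and Fgf21 (-1.18 ± 0.386), Atf5 (-0.47) and Ddit4 (-0.46) fell. Trib3 was higher in all 3 diets against cHF, by 1.27 ± 0.269 in cHF+PC, 1.04 ± 0.289 in cHF+R and 1.23 ± 0.269 in cHF+PC+R (adjusted p = 0.00604, 0.0411 and 0.0039). In cHF+PC+R against cHF+R, Trib3 was at 0.18 ± 0.280 (adjusted p = 0.753), so its PC difference lay mainly in the diets without R. Its interaction of PC and R was -1.08 ± 0.388 and did not pass (adjusted p = 0.647). With PC averaged over R, Atf4 was at 0.00 ± 0.061 (adjusted p = 0.999). Of 18 heat shock genes outside the ER, all cytosolic or nuclear apart from the mitochondrial Hspe1, 5 rose with PC and 0 fell, with a median of 0.10. They were Dnajb1 (0.39 ± 0.096, adjusted p = 0.00575), Dnaja1 (0.24), Hspb8 (0.19), Dnajb4 (0.18) and Hsf1 (0.10). Against cHF alone, the genes of these lists with the smallest adjusted p were Vldlr, a lipoprotein receptor (1.13 ± 0.174 in cHF+PC+R, adjusted p = 0.000102), and Hspe1, a mitochondrial chaperonin (0.22 ± 0.050 in cHF+PC, adjusted p = 0.0118).

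**Figure D5:**
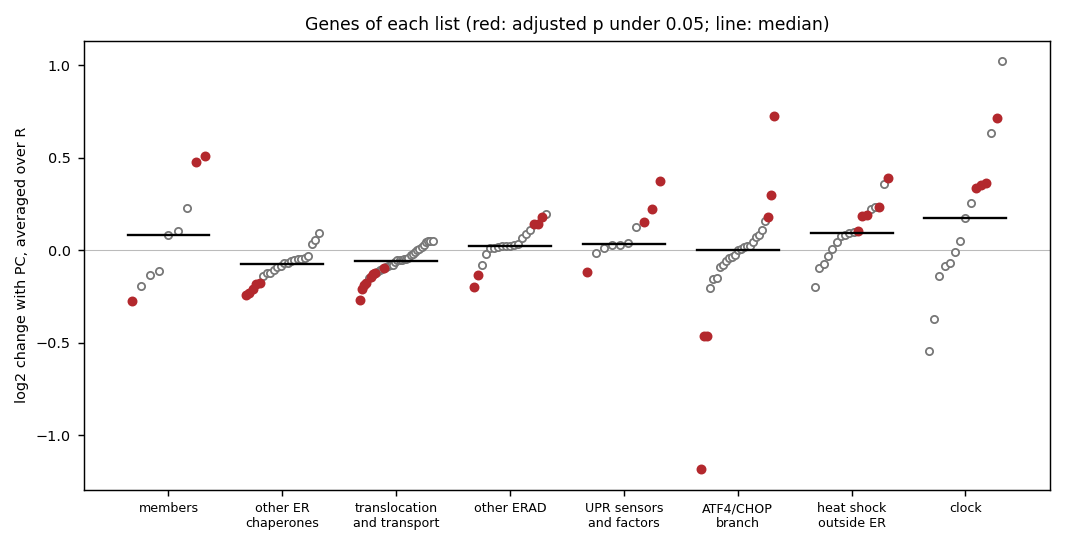
Log2 change with PC averaged over R for the 9 members and the genes of 7 lists, 1 point per gene, red past an adjusted p of 0.05, with the list's median as a line. The called genes of the lists of other ER chaperones and of translocation lie below 0, and those of heat shock outside the ER above 0.

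Other groups of genes moved with the PC diets beside Dnajb9 and Herpud1, and their part in these changes was not tested. Of 15 clock genes, 4 rose with PC averaged over R (Tef 0.72, Nr1d1 0.36, Cry2 0.35 and Nr1d2 0.34) and 0 fell. Over all genes 7.6% rose and 8.67% fell in that average. Of 16 genes of feeding and fasting, 2 rose (Pck1 0.67 and Cpt1a 0.19) and 4 fell (Pdk4 -0.75, Pnpla3 -0.68, G6pc -0.61 and Lpin1 -0.49). Pdk4 rose by 1.06 ± 0.282 in cHF+R against cHF (adjusted p = 0.0322). Of 12 hepatocyte markers, all measured, Cps1 (0.49) and Ahsg (0.34) rose and Ttr (-0.39) fell, and their mean log2 ratio ran from 0.07 to 0.29 in cHF, 0.12 to 0.54 in cHF+PC, -0.16 to 0.48 in cHF+R and 0.03 to 0.57 in cHF+PC+R. Of the markers of other cells, 0 of 10 Kupffer cell and macrophage, 0 of 6 T cell, 0 of 8 plasma and B cell, 0 of 4 neutrophil, 0 of 4 cholangiocyte and 0 of 3 erythroid genes passed with PC averaged over R. One gene fell in each of 4 lists: Lrat of 9 stellate cell genes (-0.53), Cdh5 of 7 endothelial genes (-0.16), Cfd of 3 adipocyte genes (-2.06) and Cel of 5 pancreatic acinar genes (-0.09). Pancreas markers matter for chaperones because acinar cells are rich in ER, and 6 of the 11 listed were not tested, being well above background on at most 4 arrays. Their mean ran from -0.01 to 0.19 in cHF, -0.16 to 0.11 in cHF+PC, -0.06 to 0.12 in cHF+R and -0.23 to 0.02 in cHF+PC+R.

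Over the whole series, 1 array stood apart: on cHF replicate 4, 80.8% of spots exceeded background clearly in Cy5, beside 55.0% to 62.5% on the other arrays. Without that array the counts of called members were the same in the comparisons that include cHF. The lowest correlation of log2 ratios between a pair of arrays over 39429 probes was -0.33, and the direction was kept, because both dyes are named in the labels.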

How the data were processed

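Liver RNA of 29 mice was measured on 2-colour Agilent arrays. Per the file headers and the submitters' processing notes, the deposited scanner files hold linear spot intensity in Cy5 (the liver) and Cy3 (the pool), extracted with Agilent Feature Extraction 10.5.1.1 without normalization between arrays. A value table from the authors holds log2 values of 25806 probes, with a median of 9.03 in every column. After centring each probe, all 29 columns followed their own array's Cy5 best (r from 0.67 to 0.92). How it was normalized and centred is not stated in the labels or headers, and it was used only for an alternative.

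Mean intensities were corrected with normexp (offset 50) and then loess-normalized within each array (limma 3.58.1, R 4.3.3). Control spots and spots marked as outliers had no weight and no value. Probes entered the fit when Cy5 was well above background on 6 or more arrays and 20 or more arrays had a value, which left 23981 of 39429 probes. The brightest probe stood for each gene. Groups came from the labels, which call the arrays separate replicates. 4 group means were fitted to 29 arrays (lmFit, eBayes, two-sided), with Benjamini-Hochberg adjustment over 19509 genes and a threshold of 0.05. "Rose" and "fell" mark changes that passed, and ± gives the standard error of a change. The fit was run on simulated data with independent noise for each gene and known changes. That run did not cover normalization or slides. Correlations used 100000 two-sided permutations within groups.

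Replicate numbers did not pair the arrays: same-numbered livers of different groups had correlations from -0.33 to 0.40. In cHF+PC and cHF+PC+R, same-numbered livers shared a slide, so the replicate number and the slide are largely the same block. There were 8 slides, none with more than 1 array of the same group. The number of arrays limits the precision.

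The members and gene lists were chosen with earlier results of these data known. All members were named with every probe, a fixed set of ER genes, up to 4 genes of each list with the smallest adjusted p against cHF, and the 8 genes most like the members. Other listed genes that passed with PC averaged over R, and Manf, were named after their values were seen. One gene of the lists is not reported here and is not in their counts. Alternatives were other background corrections, normalizations, filters, blocks, weights and samples. Promoter sequences are RefSeq's (GRCm38.p6), matched by symbol for 9 of 9 genes, and probe positions are those in the files (mm9).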

Additional observations from a re-analysis of the deposited data

Results flagged for a closer look

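Over 40 combinations of probe and diet group, 2 had a liver far from the rest of its group, about the number that chance gives at 1 in 20. For Pdia4, cHF replicate 3 was at 0.42 on the log2 scale and the next highest of 7 livers at 0.07. The same liver had the lowest Sdf2l1 (-0.85), Dnajb9 (-0.77), Hspa5 (-0.33) and Edem1 (-0.21) of the cHF group. For Xbp1, cHF+PC replicate 1 was at -0.10 and the next lowest of 5 livers with a value at 0.33.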

How the results depend on the processing

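The number of members called depended on normalization in the PC comparisons. With median centring in place of loess, 0 members passed in cHF+PC against cHF, 0 in cHF+PC+R against cHF and 0 in the PC average, where 10, 77 and 164 of all genes passed, against 767, 1849 and 3175 with loess. With scaling between arrays after loess 1, 0 and 1 members passed, and 272, 150 and 1313 of all genes. For cHF+R against cHF, 606 of all genes passed with loess, 82 with median centring and 78 with scaling. In the PC average, 1483 of the 3175 calls with loess were higher, and with median centring 23.8% of the 164 were. In cHF+PC+R against cHF, 1 member passed with outlier spots kept, a setting chosen after seeing the data, and 1 in the deposited table. In cHF+PC+R against cHF+R, 1 passed with a filter for all 29 arrays, the slide as a block, only the groups compared or array quality weights. With the replicate number as a block, 2 passed in cHF+PC against cHF (Herpud1 at 0.51, adjusted p = 0.0466) and 1 in cHF+PC+R against cHF+R (Dnajb9 at 0.42, adjusted p = 0.0408), and no other count changed.

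Leaving out 1 array at a time gave 1 to 2 members in cHF+PC against cHF (2 without cHF+PC replicate 5 or 8), 1 to 3 in cHF+PC+R against cHF (1 without cHF+PC+R replicate 1, 3 without cHF+PC+R replicate 3), 0 to 1 in cHF+PC+R against cHF+R and 3 in the PC average. The third of these was 1 without cHF replicate 3, cHF+R replicate 1, 3 or 4, cHF+PC replicate 4 or 7, or cHF+PC+R replicate 5 or 6. In the other comparisons 0 passed in every setting run. No called change of a member reversed, while uncalled changes turned sign in 55 of 1053 cases over the settings and in 65 of 2088 over left-out arrays. For all genes, further settings that moved a count by over 1.5 times included no background subtraction (1196 in cHF+PC against cHF), array quality weights (1237 there, and 3 for the interaction) and the Cy5 channel alone (390 there, 770 in cHF+PC+R against cHF and 1864 in the PC average). Leaving out 1 array gave 439 (without cHF+PC replicate 4) to 874 in cHF+PC against cHF. Median centring also moved the median of all genes up by 0.14 in cHF+R against cHF and 0.11 in the R average.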
